A study of Mus musculus with 2 samples.

Results

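The clustered histone genes are the short, mostly intronless histone genes that sit together in the mouse genome and are named by cluster, family and letter (Hist1h2bc is an H2B gene of the Hist1 cluster). Members were all genes of the count tables whose symbol starts with Hist1h, Hist2h, Hist3h or Hist4h, which gave 67 of 32285 genes. Of these, 65 had at least 1 UMI (unique molecular identifier, counted once per captured molecule), beside 22298 genes with a UMI in the whole series. The members were 6 linker histone genes (family H1) and 61 core histone genes, with 18 H2A, 18 H2B, 12 H3 and 13 H4 genes. Of the 67 genes, 54 lie in the Hist1 cluster on chromosome 13, 10 in the Hist2 cluster on chromosome 3, 2 in the Hist3 cluster on chromosome 11 and 1 in the Hist4 cluster on chromosome 6. Hist1h2aa and Hist1h2ba, an H2A and an H2B gene known from the testis, had no UMI in either library.

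The values are single-cell UMI counts from 2 libraries of hippocampi taken at 4 weeks of age from untreated mice. The Crlf3-mutant library came from mice with the L389P allele of Crlf3, which encodes a cytokine receptor-like protein, and the wild-type library from mice without it. A library holds 4 hippocampi, pooled from 2 mice, and the labels do not say whether the mutant mice carried the allele on both chromosomes. Cells were dissociated with enzymes, freed of debris and myelin, and sorted as live by 7-AAD exclusion. Each genotype is 1 library, so no difference was tested, no p-value is given, and every interval below covers counting error only.

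Histones package DNA. Pairs of H2A, H2B, H3 and H4 form the core of the nucleosome, and linker histone H1 binds the DNA where it enters and leaves that core. Most clustered genes are replication-dependent: a dividing cell transcribes them in S phase, under NPAT at the histone locus body, to package newly copied DNA. Their messages end in a stem-loop bound by the stem-loop binding protein SLBP and are not polyadenylated when processed in that way. In the postnatal hippocampus, neural progenitors of the dentate gyrus keep dividing, whereas neurons and most glia do not. The 10x 5′ kit primes on poly(A), so a level given here is that of molecules the primer caught, not of all histone messages of a cell. Each molecule is counted once at its 5′ end, so levels of different genes were set side by side as UMIs per 1000000 UMIs of the class (CPM) and not divided by length.

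The 3′ stem-loop is shown for 9 members whose levels are described below. The 16-base pattern searched on the transcript strand, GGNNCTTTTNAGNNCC with N for any base, occurs in the annotated transcripts (GENCODE M21, GRCm38) of 44 of the 67 members (65.7%), against 78 of 21951 protein-coding genes (0.355%). Of those 78 protein-coding genes, 44 are the members themselves. In each line the capitals mark the stem-loop, with flanking transcript bases in lower case.
Hist1h1c: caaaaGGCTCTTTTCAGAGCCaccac
Hist1h1d: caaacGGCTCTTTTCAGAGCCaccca
Hist1h1e: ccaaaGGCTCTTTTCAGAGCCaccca
Hist1h2ap: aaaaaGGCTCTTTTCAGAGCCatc
Hist2h2aa1: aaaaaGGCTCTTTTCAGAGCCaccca
Hist3h2ba: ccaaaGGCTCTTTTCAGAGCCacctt
Hist1h3e: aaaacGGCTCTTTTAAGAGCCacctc
Hist1h4d: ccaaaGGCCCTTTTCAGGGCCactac
Hist2h4: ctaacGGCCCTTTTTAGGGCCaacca
The 16-base form of the first 6 lines was shared by 26 members. The annotated transcript of Hist1h2ap ends 3 bases after its stem-loop and that of Hist2h2aa1 35 bases after, whereas those of Hist3h2ba, Hist1h1c, Hist1h1e and Hist1h1d run on for 169, 840, 1153 and 4884 bases. Over all members, 22 transcripts end within 100 bases of the stem-loop, 22 run further, and 23 have no match. Hist1h2bc and Hist1h1b are among the members with no match. Several of these 23 have short annotated transcripts, such as Hist1h4k (312 bases) and Hist1h3h (411 bases). A missing match therefore describes the annotation and does not show that the stem-loop is absent.

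Promoters of 61 members were present in the RefSeq table (GRCm38.p6). A set of 3 is shown, since these genes represent the linker genes, the H2A genes and the member that led in non-cycling neural cells. Each line gives 150 bases before the annotated start, and capitals mark matches on either strand to the TATA element TATAAA, to the CCAAT box, to the octamer ATTTGCAT and to AAACACA, an element known from H1 promoters.
Hist1h1b, chr13:21780626-21780775, minus strand: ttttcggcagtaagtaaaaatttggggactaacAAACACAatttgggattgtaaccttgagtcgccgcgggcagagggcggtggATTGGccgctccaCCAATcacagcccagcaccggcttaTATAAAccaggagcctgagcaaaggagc
Hist1h2ae, chr13:23571221-23571370, minus strand: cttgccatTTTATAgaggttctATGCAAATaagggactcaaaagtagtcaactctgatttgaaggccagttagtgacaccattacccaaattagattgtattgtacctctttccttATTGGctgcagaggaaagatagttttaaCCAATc
Hist3h2ba, chr11:58948761-58948910, plus strand: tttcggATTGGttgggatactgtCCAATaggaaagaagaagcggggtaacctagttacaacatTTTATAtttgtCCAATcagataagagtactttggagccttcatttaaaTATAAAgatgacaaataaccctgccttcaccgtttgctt
Each motif was searched on its own on both strands of the 300-base window around the start, so overlapping matches count for each motif. CCAAT stood in 82.0% of the 61 member promoters, against 34.5% of all 27025 promoters in the table, and TATAAA in 45.9% against 12.97%. All 18 H2A, all 16 H2B and all 5 H1 promoters present held CCAAT, against 3 of 12 H4 promoters. ATTTGCAT stood in 21.3% of member promoters, against 1.61% of all promoters. Matches stood in 7 of 18 H2A and 6 of 16 H2B promoters and in none of the H1, H3 and H4 promoters. Some H2A and H2B genes lie on opposite strands with overlapping windows, such as Hist1h2ae and Hist1h2bg, so a single site can count for both. The TTTATA and ATGCAAAT marked for Hist1h2ae are the same bases as the TATAAA and ATTTGCAT of Hist1h2bg. AAACACA stood in 13.1% of member promoters against 6.22% of all promoters, and in 4 of the 5 H1 promoters. A match is a string of letters and was not shown to be bound here.

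After filtering, the mutant library held 5275 cells with a median of 7385 UMIs, and the wild-type library 7109 cells with a median of 6193 UMIs. The libraries shared 64 barcodes, 55 of them among kept cells. Cells were gated by marker lists that hold no clustered histone gene, and each class below is named for its list, which was highest in that class for choroid plexus cells, astrocytes, microglia, endothelial and mural cells. Cycling progenitors, neural progenitors or neuroblasts with UMIs of at least 4 of 12 cycling markers such as Mki67 and Top2a, numbered 55 in the mutant and 44 in the wild-type library. All 12 cycling markers were highest in this class in both libraries, and their summed level was 5502 CPM in the mutant and 4545 CPM in the wild-type library, against 31.6 to 104 CPM in the non-cycling classes. The 6 non-cycling classes were the non-cycling neuron lineage (143 mutant and 119 wild-type cells), choroid plexus cells (161 and 451), astrocytes (491 and 783), microglia (3257 and 4446), endothelial cells (811 and 828) and mural cells (169 and 129). Mature neurons numbered only 1 and 3 cells, so the non-cycling neuron lineage consists of progenitors and neuroblasts. Neural progenitor markers summed to 7108 CPM in mutant and 6660 CPM in wild-type cycling progenitors, against 10282 and 10776 CPM in the non-cycling lineage, and neuroblast markers to 1485 and 1467 CPM, against 6163 and 5659 CPM. The cycling class is therefore set apart by its cycling markers and by few neuroblast markers, not by more progenitor markers. Summed microglia markers, a sign of free or admixed RNA, reached 56.3 CPM in mutant and 65.7 CPM in wild-type cycling progenitors and 101 to 598 CPM in choroid plexus cells, astrocytes, endothelial and mural cells, against 28089 and 27742 CPM in microglia themselves. Their part in the histone levels was not tested. The Crlf3 allele is a base change that UMI counts do not show, so the genotype labels were not checked from the counts.

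Members differed widely in abundance. In all kept cells together they gave 34190 UMIs (819 CPM) in the mutant and 34793 UMIs (709 CPM) in the wild-type library. Hist1h2bc alone, an H2B gene, gave 17773 of these UMIs (25.8%), followed by the linker gene Hist1h1e with 6262 (9.08%) and the H2A gene Hist1h2ap with 6102 (8.85%). The first 4 members gave 52.1% and the first 20 gave 85.8% of member UMIs, while 16 members had fewer than 100 UMIs.

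Cycling progenitors held far higher summed clustered histone levels than any non-cycling class in both libraries. Their summed level was 11365 CPM in the mutant library (exact Poisson 95% interval 11144 to 11589, 10099 UMIs in 55 cells) and 11317 CPM in the wild-type library (11045 to 11594, 6549 UMIs in 44 cells). The mean of the 6 non-cycling classes was 809 CPM in the mutant and 761 CPM in the wild-type library, so that cycling progenitors stood 14.1 times and 14.9 times above it. Among non-cycling classes, choroid plexus cells held 1358 CPM in the mutant and 1318 CPM in the wild-type library, and the neuron lineage 1306 and 1274 CPM. In the mutant library the intervals of these neighbours in the order overlapped (1312 to 1404 and 1246 to 1368 CPM). Astrocytes followed with 1118 CPM in the mutant and 937 CPM in the wild-type library. Microglia, endothelial and mural cells were lowest, with 384, 367 and 319 CPM in the mutant and 343, 316 and 378 CPM in the wild-type library. The cycling progenitors exceeded their own non-cycling lineage 8.70 times in the mutant and 8.89 times in the wild-type library, and microglia 29.6 and 33.0 times. Median cells lay closer together, at 2985 CPM in mutant and 3667 CPM in wild-type cycling progenitors. The medians were 981 and 1108 CPM in the non-cycling lineage and 1241 and 1217 CPM in choroid plexus cells. The lower quartile of cycling progenitors was 1194 CPM in the mutant and 1481 CPM in the wild-type library.

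**Figure D1:**
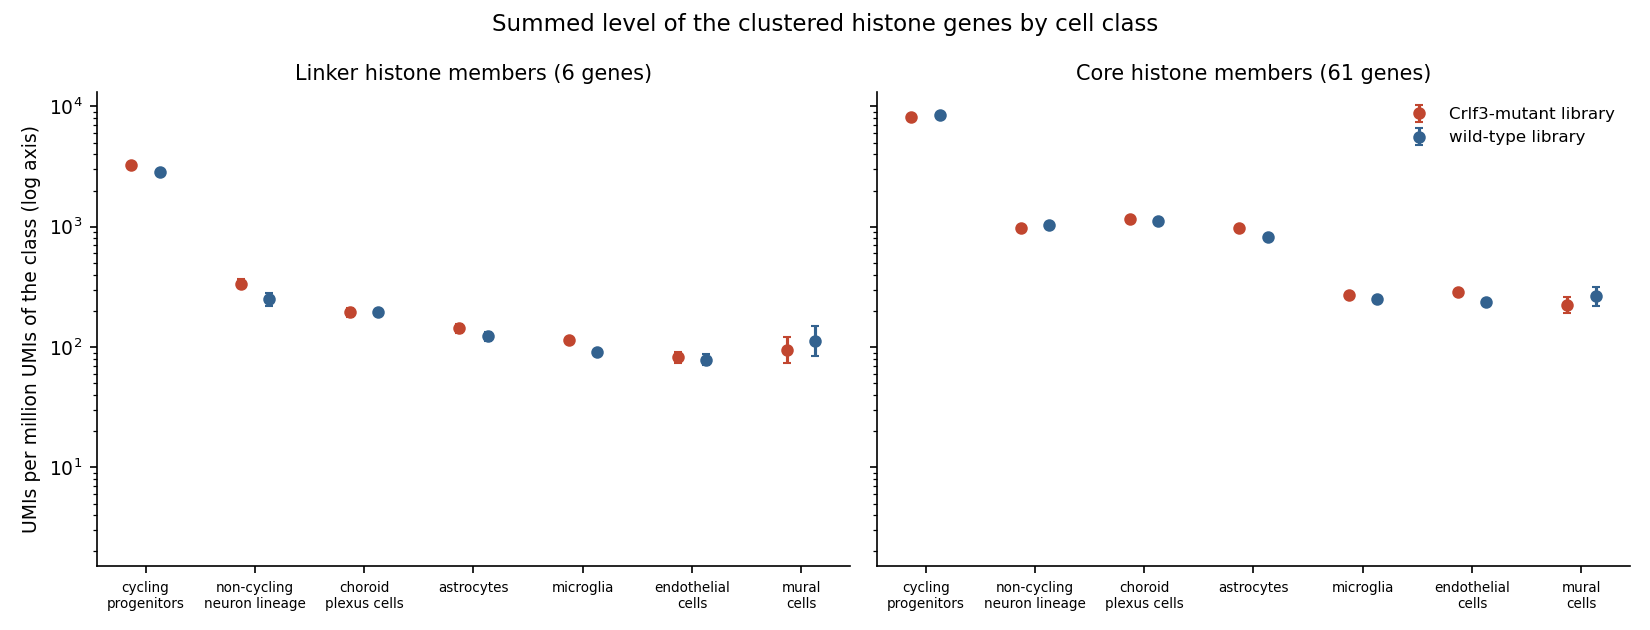
Summed level of the 6 linker and the 61 core members in each cell class (log axis, CPM), with the mutant library left of the wild-type library and bars for the exact Poisson 95% interval. Cycling progenitors lie above every other class in both panels, with linker levels of 3261 CPM (mutant) and 2831 CPM (wild type).

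A second dividing class gave values of the same kind. Cycling microglia numbered only 11 cells in the mutant and 10 cells in the wild-type library, too few to be compared further, and held 6091 and 6882 CPM of clustered histone UMIs, against 384 and 343 CPM in non-cycling microglia. In that class 1 cell gave 43.2% of the member UMIs in the mutant and 49.4% in the wild-type library.

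Gene by gene, 61 members had at least 10 UMIs in the compared classes of each library. The other 6, Hist1h1t, Hist1h2aa, Hist1h2ba, Hist1h2bp, Hist1h2bq and Hist1h4f, were too sparse to be compared. On the log2 scale of CPM plus 10, 44 of the 61 were at least 2-fold higher in cycling progenitors than in the mean of the non-cycling classes in both libraries, and none was 2-fold lower in both. Over all 15925 genes that met the same minimum, 7.05% were higher and 12.5% were lower by this rule. The median log2 ratio of the members was 2.31 in the mutant and 2.52 in the wild-type library, against -0.05 and -0.05 over all genes. Cycling progenitors exceeded every single non-cycling class in both libraries for 53 of the 61 members, against 11.5% of all genes. The other 8, named after their values were seen, were the H2B genes Hist1h2bc and Hist3h2ba, the H2A genes Hist2h2aa1, Hist2h2aa2 and Hist3h2a, the H3 genes Hist2h3c1 and Hist2h3c2, and Hist4h4. By annotated 3′ end, 16 of 20 members that end within 100 bases of the stem-loop were at least 2-fold higher, as were 14 of 21 that run further and 14 of 20 without a match. Against the non-cycling neuron lineage alone, 45 of 54 members with enough UMIs were 2-fold higher in both libraries and 1 was lower, where 5.32% and 4.21% of all 10250 genes were.

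The linker genes went the same way. All 5 with enough UMIs were at least 2-fold higher in cycling progenitors, with a median log2 ratio of 4.68 in the mutant and 4.44 in the wild-type library. Hist1h1e (chromosome 13, 23620629 to 23622558, minus strand), a somatic H1 gene, was the most abundant, at 1080 CPM in mutant and 1040 CPM in wild-type cycling progenitors, against non-cycling means of 73.6 and 68.2 CPM (log2 ratios 3.71 and 3.75). Its highest non-cycling class was the neuron lineage, at 190 CPM in the mutant and 168 CPM in the wild-type library. Hist1h1e shares exon bases on its strand with Hist1h2be and Gm11398, so the split of reads among these genes is uncertain.

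Hist1h1b, another somatic H1 gene, was at a few CPM outside dividing cells in most classes. It reached 885 CPM in mutant and 563 CPM in wild-type cycling progenitors, against 3.33 and 2.37 CPM in the non-cycling mean (log2 ratios 6.07 and 5.54). With every cell thinned to 2000 UMIs, 38.2% of mutant and 38.6% of wild-type cycling progenitors held a Hist1h1b UMI (63.6% and 68.2% unthinned), against 0.0933% and 0.0228% of microglia (0.307% and 0.157% unthinned). Hist1h1d followed at 610 CPM in mutant and 698 CPM in wild-type cycling progenitors, against 10.8 and 7.68 CPM (log2 ratios 4.90 and 5.32). Hist1h1a gave 294 CPM in mutant and 233 CPM in wild-type cycling progenitors, against 1.84 and 1.24 CPM in the non-cycling mean.

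Hist1h1c had the smallest contrast of the 5 linker genes. It held 393 CPM in mutant and 295 CPM in wild-type cycling progenitors, against non-cycling means of 71.5 and 62.0 CPM (log2 ratios 2.31 and 2.09). Choroid plexus cells gave 115 CPM in the mutant and 120 CPM in the wild-type library, and microglia 55.3 and 43.0 CPM. Hist1h1t, the testis-specific H1 gene, had 2 UMIs in the compared classes, both in mutant microglia. The linker genes differ in how much of the dividing cell's level persists elsewhere, with Hist1h1c and Hist1h1e present in every class and Hist1h1a and Hist1h1b at 0 or a few CPM in most of them.

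Among H2A genes, 13 of 17 with enough UMIs were at least 2-fold higher in cycling progenitors, with median log2 ratios of 2.96 in the mutant and 3.11 in the wild-type library. Hist1h2ap was the most abundant member in dividing cells, with 2728 CPM in mutant and 2979 CPM in wild-type cycling progenitors, against 13.7 and 13.98 CPM in the non-cycling mean. In thinned cells, 50.9% of mutant and 54.5% of wild-type cycling progenitors held a Hist1h2ap UMI (81.8% and 72.7% unthinned), against 5.63% and 5.93% of the non-cycling lineage (25.2% and 21.0% unthinned). Mural cells gave 0 of 149 thinned cells in the mutant and 0 of 113 in the wild-type library, which allows shares of up to 2.01% and 2.65% (0.592% and 1.55% unthinned). Median depths before thinning were 16540 and 12784.5 UMIs in cycling progenitors, 9792 and 8210 in the non-cycling lineage and 3616 and 3059 in mural cells. They were 12218 and 10190 UMIs in choroid plexus cells and 7726 and 6344.5 UMIs in microglia.

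Other abundant H2A genes showed the same contrast between dividing and non-dividing cells. Hist1h2ae gave 985 CPM in mutant and 641 CPM in wild-type cycling progenitors, against 8.24 and 9.45 CPM in the non-cycling mean. Hist1h2af gave 502 CPM in mutant and 247 CPM in wild-type cycling progenitors and had no UMI in the neuron lineage, choroid plexus or mural cells of either library. Hist1h2ao gave 396 CPM in mutant and 275 CPM in wild-type cycling progenitors, and Hist1h2ab 308 and 232 CPM, while their non-cycling means lay between 1.09 and 2.63 CPM. Many H2A coding sequences are nearly identical. Hist1h2ap shares 85.1%, Hist1h2af 97.5% and Hist1h2ao 100% of the 100-base stretches in its first 300 bases with other genes, whereas Hist1h2ae shares none. Cell Ranger by default counts reads assigned to 1 gene, so levels of the sharing members are uncertain.

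Hist2h2aa1, an H2A gene of the Hist2 cluster, was lower in cycling progenitors than in choroid plexus cells and astrocytes. It held 25.9 CPM in mutant and 46.7 CPM in wild-type cycling progenitors, against 162 and 144 CPM in choroid plexus cells and 82.9 and 69.6 CPM in astrocytes. Its log2 ratio of cycling progenitors over the non-cycling mean was -0.90 in the mutant and -0.11 in the wild-type library, and over the non-cycling neuron lineage -0.05 and 0.59. It shares 71.6% of the stretches of its first 300 bases with Gm20634 and other H2A genes, and its exons overlap Gm20634 on the same strand, so its level is uncertain too.

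The H2B family was divided. Of 15 H2B genes with enough UMIs, 9 were at least 2-fold higher in cycling progenitors, and the summed family stood only 2.44 times in the mutant and 3.51 times in the wild-type library above the non-cycling mean. Hist1h2bc (chromosome 13, 23684199 to 23692908, plus strand, 2 exons) and Hist3h2ba (chromosome 11, 58948920 to 58949533, plus strand), set apart after their values were seen, held 491 CPM in mutant and 570 CPM in wild-type cycling progenitors, against non-cycling means of 363 and 348 CPM. The other 16 H2B genes together held 456 CPM in mutant and 738 CPM in wild-type cycling progenitors, against 24.9 and 24.7 CPM, which is 18.3 and 29.9 times the mean.

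Hist1h2bc was the most abundant member in choroid plexus cells, astrocytes, microglia and endothelial cells of both libraries, and its level was highest in choroid plexus cells. Cycling progenitors held 342 CPM in the mutant and 392 CPM in the wild-type library, against 799 and 767 CPM in choroid plexus cells and 503 and 446 CPM in astrocytes. The neuron lineage (208 and 211 CPM), endothelial cells (112 and 88.6 CPM), microglia (82.8 and 78.2 CPM) and mural cells (49.7 and 60.8 CPM) were lower. Hist1h2bc gave 58.8% of all member UMIs in choroid plexus cells of the mutant and 58.2% in those of the wild-type library. In thinned cells, 67.3% and 72.2% of choroid plexus cells held a UMI of it (96.9% and 96.0% unthinned), against 6.71% and 10.6% of mural cells (14.8% and 17.1% unthinned). It shares 76.1% of the stretches of its first 300 bases with other H2B genes.

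Hist3h2ba was the leading histone gene of the non-cycling neuron lineage. Cycling progenitors held 149 CPM in the mutant and 178 CPM in the wild-type library, against 403 and 411 CPM in the non-cycling lineage and 11.6 and 12.96 CPM in astrocytes. It was the member at least 2-fold lower in cycling progenitors than in the non-cycling lineage in both libraries, with log2 ratios of -1.38 in the mutant and -1.16 in the wild-type library. In thinned cells, 25.5% of mutant and 29.5% of wild-type cycling progenitors held a UMI of it (78.2% and 68.2% unthinned), against 55.6% and 46.6% of the non-cycling lineage (83.9% and 76.5% unthinned). Choroid plexus cells gave 0 of 159 and 0 of 446 thinned cells, which allows shares of up to 1.89% and 0.673% (0% and 0.222% unthinned). The gene shares only 7.46% of the stretches of its first 300 bases with another gene, the pseudogene Hist3h2bb-ps.

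**Figure D2:**
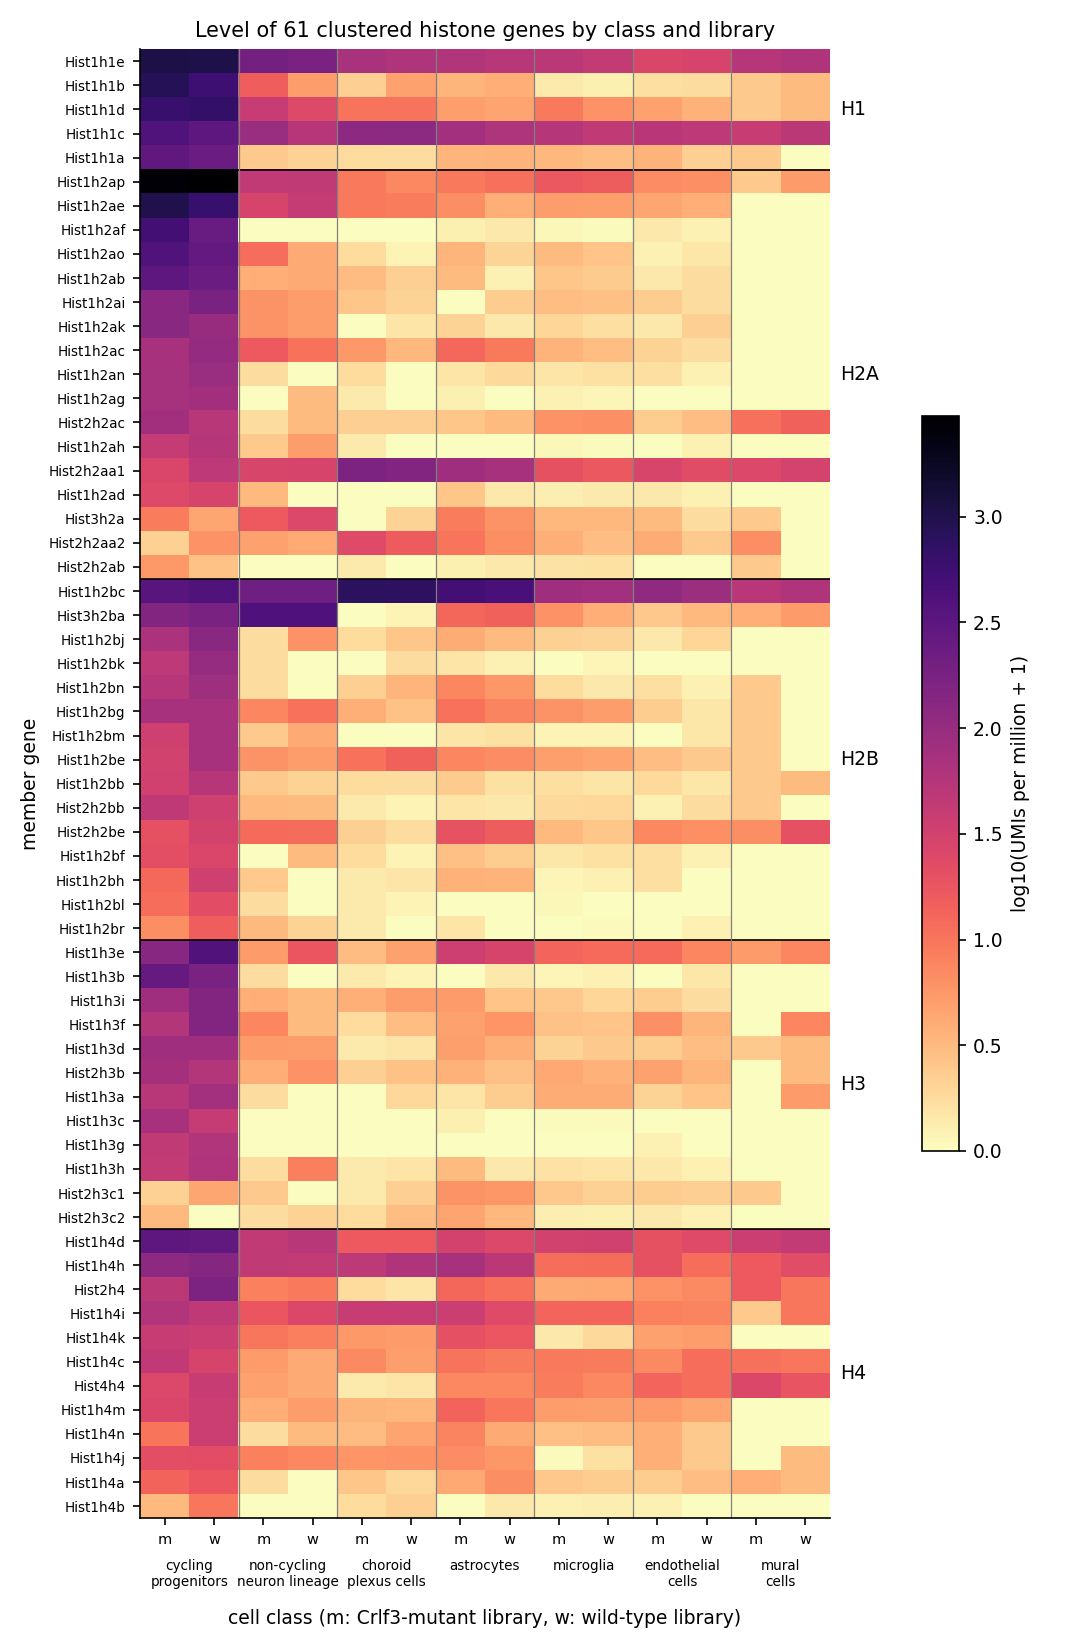
Level of each of the 61 members with enough UMIs (rows, grouped by histone family) in each class and library (columns, m for the mutant and w for the wild-type library), as log10 of CPM plus 1. Most rows are dark only in the cycling progenitors at the left, whereas Hist1h2bc is darkest in choroid plexus cells (799 and 767 CPM) and Hist3h2ba in the non-cycling neuron lineage (403 and 411 CPM).

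H3 genes were low outside dividing cells, with astrocytes the highest non-cycling class. Of 12 H3 genes, 10 were at least 2-fold higher in cycling progenitors, and the family summed to 895 CPM in mutant and 1227 CPM in wild-type cycling progenitors, 34.8 and 44.1 times the non-cycling mean. Astrocytes summed to 60.6 CPM in the mutant and 48.1 CPM in the wild-type library, and the other 5 non-cycling classes to between 7.10 and 39.2 CPM. Hist1h3b gave 258 CPM in mutant and 178 CPM in wild-type cycling progenitors, against 0.215 and 0.219 CPM. In the mutant library 111 of its 229 UMIs there came from 1 cell. Without its richest cell in each library, its level was 135 CPM in the mutant and 144 CPM in the wild-type library. Hist1h3e held 133 CPM in mutant and 382 CPM in wild-type cycling progenitors and was the H3 gene with the highest astrocyte level, 34.2 and 28.01 CPM. In choroid plexus cells H3 gave 0.682% of member UMIs in the mutant and 1.29% in the wild-type library, where H2B gave 60.3% and 59.9%.

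H4 genes kept a low level in all classes. Of 12 with enough UMIs, 7 were at least 2-fold higher in cycling progenitors, with median log2 ratios of 1.28 in the mutant and 1.496 in the wild-type library, and the family stood 5.62 and 7.05 times above the non-cycling mean. Hist1h4d led in dividing cells with 299 CPM in the mutant and 276 CPM in the wild-type library, against non-cycling means of 28.7 and 30.9 CPM (log2 ratios 2.998 and 2.81). Hist1h4h held 115 CPM in mutant and 137 CPM in wild-type cycling progenitors, beside 70.0 and 47.7 CPM in astrocytes. Hist1h4i held 57.4 CPM in mutant and 44.9 CPM in wild-type cycling progenitors, against 37.9 and 38.1 CPM in choroid plexus cells.

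Linker and core genes were both higher in cycling progenitors. Over all members the linker genes had the larger factor, but this order changed when Hist1h2bc was left out of the core genes. Linker genes summed to 3261 CPM in the mutant (3144 to 3382) and 2831 CPM in the wild-type library (2695 to 2971), which was 20.3 and 20.01 times the non-cycling mean. Core genes summed to 8104 CPM in the mutant and 8486 CPM in the wild-type library, 12.5 and 13.7 times the mean. Hist1h2bc alone gave 799 CPM in mutant and 767 CPM in wild-type choroid plexus cells, which raises the non-cycling core mean. Without this gene, set apart after its values were seen, the core factor exceeded the linker factor in both libraries. No linker gene was left out, and Hist1h1c, the linker gene with the smallest contrast, was kept. The order with a gene left out of both sets was not tested. The linker share of member UMIs was 28.7% in mutant cycling progenitors (Clopper-Pearson 95% interval 27.8% to 29.6%) and 25.01% in wild-type ones (24.0% to 26.1%), against means over the non-cycling classes of 22.5% and 21.4%. Microglia (29.7% and 26.5%) and mural cells (29.8% and 29.9%) had linker shares as high as dividing cells, while choroid plexus cells (14.3% and 14.8%) and astrocytes (12.9% and 13.1%) were lowest. The linker share of the dividing class thus lay within the range of the non-cycling classes in both libraries. Within the core genes, H2A took 49.0% of member UMIs in mutant and 45.2% in wild-type cycling progenitors, against 12.3% and 13.4% in the non-cycling lineage, where H2B took 49.4% and 52.0%.

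**Figure D3:**
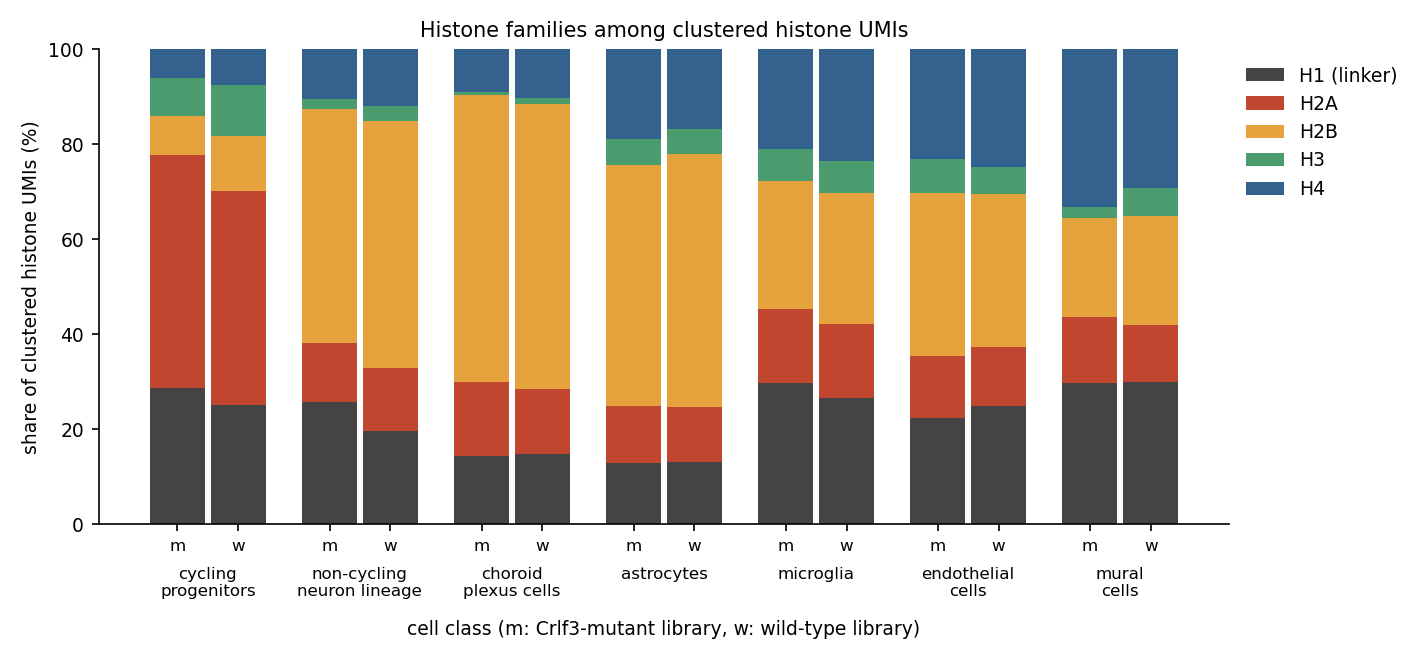
Share of clustered histone UMIs given by each histone family in each class, with m for the mutant and w for the wild-type library. H2A takes 49.0% (mutant) and 45.2% (wild type) in cycling progenitors, and H2B is the largest family in the neuron lineage, choroid plexus cells and astrocytes.

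The Hist1 cluster gave 95.8% of member UMIs in mutant and 94.6% in wild-type cycling progenitors. In the non-cycling lineage the Hist3 cluster, through Hist3h2ba, gave 32.01% in the mutant and 34.2% in the wild-type library. In choroid plexus cells the Hist2 cluster gave 14.1% and 12.6%, most of it Hist2h2aa1.

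Genes that work with the clustered histones were read from lists chosen for this comparison. Of 11 replacement histone genes, which are expressed outside S phase as well, 9 were at least 2-fold higher in cycling progenitors than in the non-cycling mean (median log2 ratios 2.09 in the mutant and 1.93 in the wild-type library). Against the non-cycling neuron lineage alone, 5 of the 11 were (medians 0.88 in the mutant and 0.68 in the wild-type library), beside 5.32% of all genes. The centromeric H3 gene Cenpa gave 422 CPM in mutant and 321 CPM in wild-type cycling progenitors, against 3.51 and 3.79 CPM. H2afx, whose product is phosphorylated at DNA breaks, gave 838 and 797 CPM against 42.1 and 41.5 CPM, and the linker variant gene H1fx 879 and 669 CPM against 51.0 and 44.9 CPM. H2afz, the H2A.Z gene, was more abundant than any clustered member, at 3524 CPM in mutant and 3413 CPM in wild-type cycling progenitors, against 331 and 327 CPM.

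Of 10 listed genes of histone mRNA processing and the histone locus, 3 were at least 2-fold higher than in the non-cycling mean, beside 7.05% of all genes (median log2 ratios 0.77 in the mutant and 0.43 in the wild-type library). Against the non-cycling neuron lineage alone, 1 of 8 with enough UMIs was. Slbp gave 304 CPM in mutant and 347 CPM in wild-type cycling progenitors against 65.0 and 63.9 CPM, and the locus body gene Casp8ap2 had log2 ratios of 1.57 and 1.58. Eri1, a nuclease that trims the histone stem-loop, had log2 ratios of 1.06 and 1.64. Npat, the activator of clustered histone transcription, held 33.8 and 43.2 CPM, with log2 ratios of 0.92 and 1.15, and did not pass the fold in both libraries.

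Among 11 histone chaperones and modifiers of new histones, 9 were at least 2-fold higher than in the non-cycling mean, with medians of 1.99 and 1.93. Against the non-cycling neuron lineage alone, 6 of the 11 were, with medians of 1.03 in the mutant and 1.29 in the wild-type library. The largest ratios were those of Chaf1b, a subunit of the chromatin assembly factor (3.16 in the mutant and 3.12 in the wild-type library), and Nasp, the chaperone of H1 and H3 (3.18 and 2.95). Asf1b (3.05 and 2.95), an H3-H4 chaperone, and the acetyltransferase gene Hat1 (2.18 and 2.18) followed. All 22 S phase genes, of which 3 are also gate markers, were higher, with medians of 3.18 and 3.39. They were led by Rrm2, Uhrf1, Mcm5 and Dut, of which Rrm2 and Mcm5 are gate markers, so these values too describe the gate. All 20 G2 and M phase genes, of which 7 are gate markers, were higher, with medians of 4.64 and 4.08, led by Top2a, Mki67, Ube2c and Cenpf, whose part in the gate means that these values describe the gate. Of 4 polyadenylation genes, 2 passed the fold, with Pabpn1 at 537 and 572 CPM against 245 and 251 CPM. Against the non-cycling neuron lineage alone, 0 of these 4 passed it. All 22 S phase and all 20 G2 and M phase genes did, and both of those lists share markers with the gate.

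Within the cycling class, single cells differed by more than 100-fold. Clustered histone levels ran over cells from 180 to 46520 CPM with a median of 2985 CPM in the mutant library, and over cells from 256 to 53040 CPM with a median of 3667 CPM in the wild-type library. The cell with most member UMIs gave 11.0% of them in the mutant and 11.3% in the wild-type library. Cells were placed by the share of G2 and M phase UMIs among the UMIs of the S and G2/M lists. None of the listed genes is a clustered histone gene. The cells were then divided into 3 ranges of equal total size. Some were placed on few list UMIs, such as a wild-type cell of the middle range with 5 S and 3 G2/M UMIs. A mutant cell of the high range had 4 and 9, so the range of such cells is uncertain.

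In both libraries the middle range held the highest clustered histone level. The low range, where S phase genes dominate, gave 3188 CPM in 16 mutant cells and 8564 CPM in 17 wild-type cells. The middle range gave 17992 CPM in 20 mutant cells and 19610 CPM in 13 wild-type cells. The high range, where G2 and M phase genes dominate, gave 10790 CPM in 19 mutant cells and 5930 CPM in 14 wild-type cells. The median cell from low to high held 889, 16837 and 2985 CPM in the mutant and 2915, 16779 and 2598 CPM in the wild-type library. Single cells of the middle range ran from 839 to 46520 CPM in the mutant and from 762 to 53040 CPM in the wild-type library. A few cells carried much of the level in each range. The 4 cells richest in member UMIs gave 80.9% of them in the mutant and 73.6% in the wild-type low range. The 4 richest cells gave 48.7% and 66.3% in the middle range, and 66.7% and 79.7% in the high range. Those 4 wild-type cells of the low range had G2 and M phase shares between 0.291 and 0.329, just under the limit of 0.332 to the middle range. Without the 4 richest cells of each range, a choice made after the values were seen, the levels from low to high were 834, 12254 and 4796 CPM in the mutant and 3225, 11713 and 1851 CPM in the wild-type library. The middle range was highest in both libraries with and without these cells, while the order of low and high rests on few cells and their medians in the wild-type library lay close together. Hist1h2ap gave 1138, 4149 and 2460 CPM from low to high in the mutant and 2008, 5892 and 1094 CPM in the wild-type library. H3 genes together gave 97.4, 1668 and 689 CPM from low to high in the mutant and 950, 1924 and 838 CPM in the wild-type library. Hist3h2ba was instead highest in the high range, with 97.4, 132 and 214 CPM from low to high in the mutant and 130, 174 and 249 CPM in the wild-type library. The linker share showed no common order, with 25.1%, 28.9% and 29.3% from low to high in the mutant and 29.3%, 22.6% and 25.2% in the wild-type library.

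**Figure D4:**
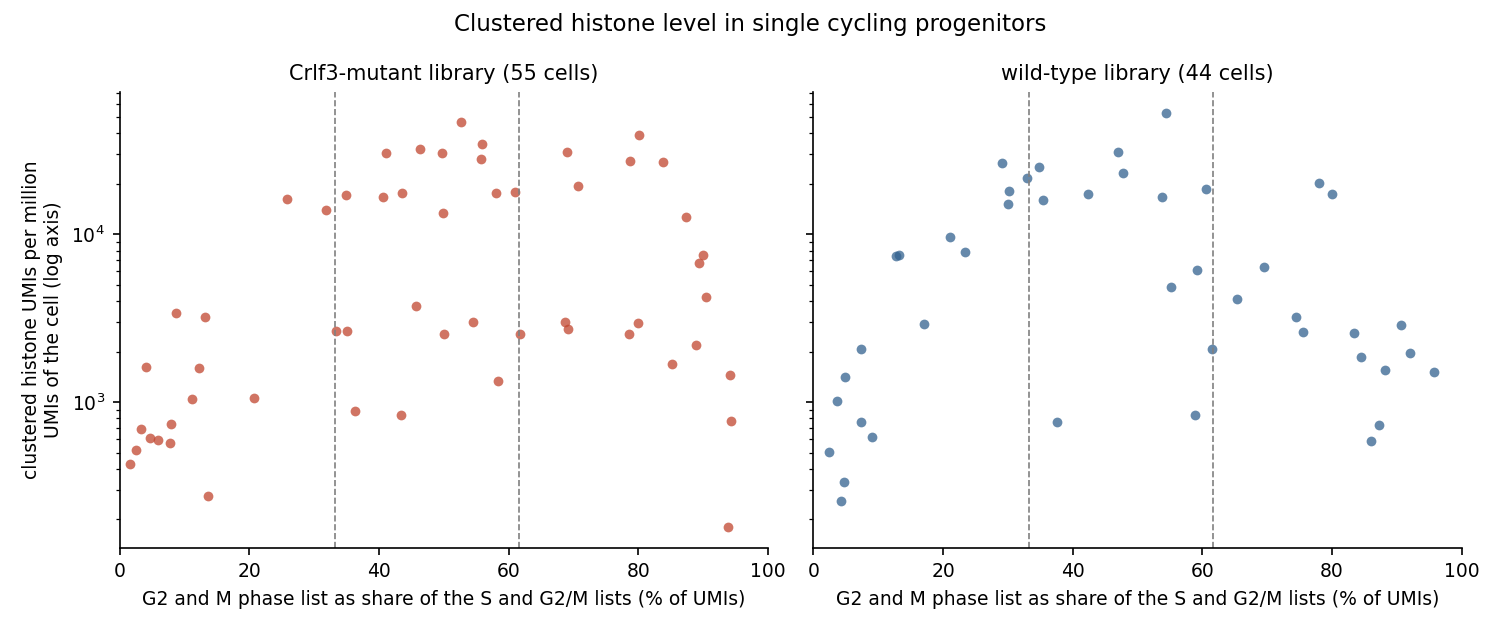
Clustered histone CPM of each cycling progenitor (log axis) against the share of G2 and M phase UMIs among the UMIs of the S and G2/M lists, in 55 mutant cells (left) and 44 wild-type cells (right), with dashed lines between the 3 ranges. In both libraries the middle range has the highest median cell and sums to 17992 CPM (mutant) and 19610 CPM (wild type). Its cells run from 839 to 46520 CPM (mutant) and from 762 to 53040 CPM (wild type). Some middle cells thus lie as low as cells at the ends, and some cells of the other ranges lie high.

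Between genotypes, the summed level of the clustered histone genes in cycling progenitors was nearly equal, with a ratio of mutant to wild type of 1.004 (0.973 to 1.04). Families differed in direction. Linker genes were 1.15 times (1.08 to 1.22) as abundant in mutant as in wild-type cycling progenitors, whereas H2B genes stood at 946 CPM in the mutant and 1308 CPM in the wild-type library, a ratio of 0.723 (0.655 to 0.799). H3 genes gave a ratio of 0.729, with 895 CPM in the mutant and 1227 CPM in the wild-type library, and H4 genes 0.828. Counting intervals assume that each UMI falls independently, and the spread over cells was far wider, so these intervals are too narrow as limits for the genotype.

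By gene, 56 members had at least 10 UMIs over both libraries in cycling progenitors, and their median log2 ratio of mutant over wild type was -0.24, against 0.00 over all 9937 genes tested there. At 1.5-fold, 4 members were higher and 14 lower in the mutant library, beside 4.25% and 4.2% of all genes. The 4 higher members were Hist1h2af (502 CPM in mutant and 247 CPM in wild type, log2 ratio 0.99), Hist1h3c (69.8 and 39.7 CPM, 0.68), Hist1h1b (885 and 563 CPM, 0.64) and Hist1h2ae (985 and 641 CPM, 0.61). Of the 14 lower members, 8 were among the 16 H2B genes tested, whose median was -0.57. A further 3 were among the 10 H3 genes tested, whose median was -0.41. The lowest ratios were those of the H4 gene Hist2h4 (47.3 CPM in mutant and 164 CPM in wild type, -1.60), the H3 gene Hist1h3e (133 and 382 CPM, -1.46) and the H4 gene Hist1h4n (9.003 and 36.3 CPM, from 8 and 21 UMIs, -1.28).

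Single cells weighed heavily on several of these ratios. In the wild-type library, 67 of the 95 Hist2h4 UMIs of cycling progenitors came from 1 cell, and without the cell that held most of its UMIs in each library its log2 ratio was -0.28. Across the 50 members with at least 30 UMIs in cycling progenitors, the richest cell gave a median of 18.4% of the UMIs in the mutant and 21.6% in the wild-type library. With each gene's own richest cell of each library left out, 5 members were higher and 11 lower, beside 6.05% and 3.71% of all genes. Of these, 4 and 8 were shared with the counts above. Fewer H2B genes were lower (3), with a family median of -0.28. More H3 genes were lower (5 of 10, with 1 higher), with a family median of -0.67. Hist1h3e (-1.24), Hist1h4n (-0.88), Hist1h2af (0.95), Hist1h1b (0.77) and Hist1h3c (0.62) remained past 1.5-fold. The removal was chosen after the values had been seen.

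The place of the cells in the cycle differed between the libraries as well. In cycling progenitors the listed S phase genes had a median log2 ratio of mutant over wild type of -0.18 and the G2 and M phase genes of 0.35, with 3 of 20 at least 1.5-fold higher. Median depth was 16540 UMIs in mutant and 12784.5 UMIs in wild-type cells. Within the ranges, H2B genes gave 398 CPM in mutant and 711 CPM in wild-type cells of the low range. They gave 1179 and 2327 CPM in the middle range, and 1158 and 1009 CPM in the high range. Linker genes were lower in mutant cells of the low range (799 and 2506 CPM). They were higher in mutant cells of the middle range (5197 and 4436 CPM) and of the high range (3159 and 1495 CPM). The part of cycle position and depth in the member ratios was not tested.

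**Figure D5:**
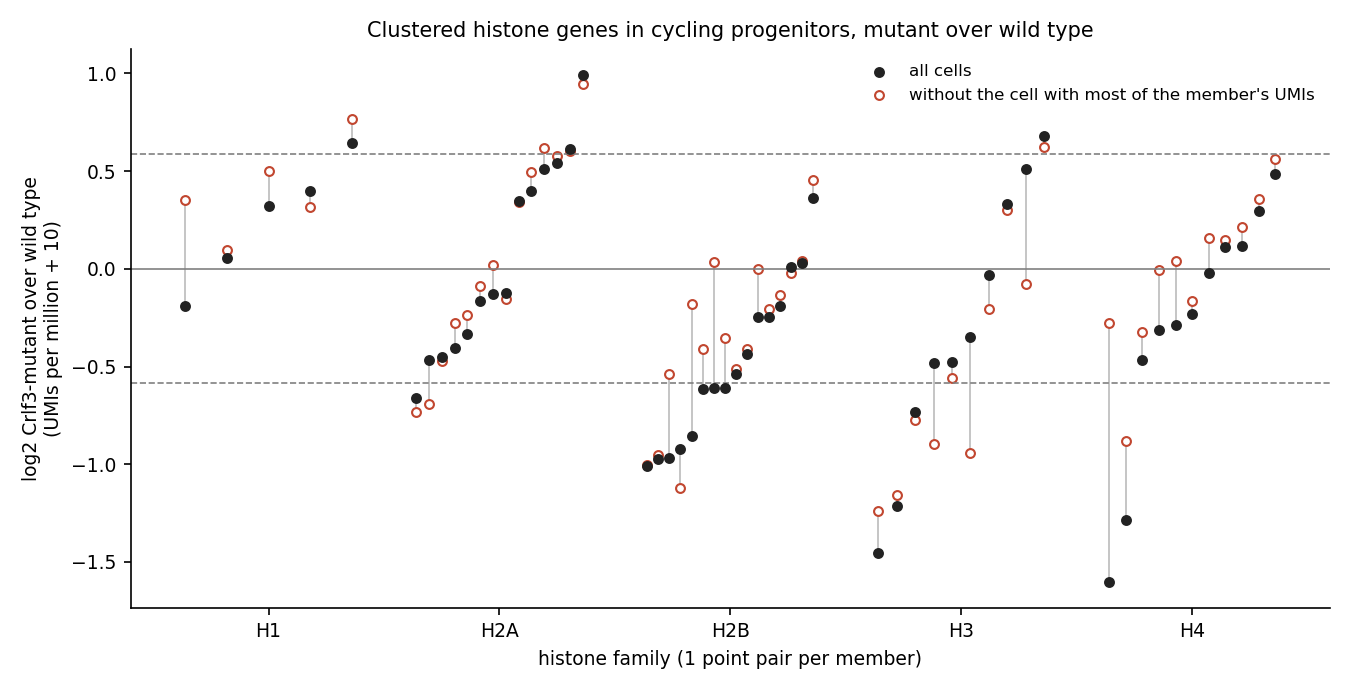
Log2 ratio of mutant over wild type (CPM plus 10) of 56 members in cycling progenitors, by histone family, with filled points for all cells and open points without the cell that held most of the member's UMIs in each library. Dashed lines mark 1.5-fold, and the filled point of Hist2h4 at -1.60 lies far from its open point at -0.28.

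In the non-cycling neuron lineage the linker genes were again higher in the mutant library, with 337 CPM against 249 CPM in the wild-type library, a ratio of 1.35 (1.15 to 1.59). Of 26 members tested there, 3 were at least 1.5-fold higher and 1 lower, beside 1.51% and 2.31% of all genes. The higher ones were Hist1h1b (13.9 CPM in mutant and 4.24 CPM in wild type, from 19 and 4 UMIs, log2 ratio 0.75), Hist1h1c (93.6 and 51.9 CPM, 0.74) and the H2A gene Hist1h2ao (10.2 and 3.18 CPM, from 14 and 3 UMIs, 0.62). With every cell thinned to 2000 UMIs the Hist1h1b ratio was -0.45. The lower one was Hist1h3e (4.39 and 17.0 CPM, from 6 and 16 UMIs, -0.91), followed by Hist3h2a (-0.44) and Hist1h4i (-0.40).

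Astrocytes, microglia and endothelial cells held slightly more clustered histone UMIs in the mutant library, with summed ratios of 1.19 (1.14 to 1.25), 1.12 (1.09 to 1.15) and 1.16 (1.08 to 1.25), while the log2 ratio was 0.04 in choroid plexus cells and -0.24 in mural cells. In astrocytes, 0 of 41 members tested reached 1.5-fold in either direction, beside 0.108% higher and 0.286% lower of all genes. Hist1h4i (36.3 CPM in mutant and 22.6 CPM in wild type, log2 ratio 0.51), Hist1h4h (0.47) and Hist1h4n (0.35) were the highest, and Hist1h3f (-0.10), Hist1h2ap (-0.11) and Hist1h4a (-0.24) the lowest. In microglia, where counts were largest, 0 of 54 reached it, beside 0.0414% and 0.104% of all genes. Hist1h1c (55.3 CPM in mutant and 43.0 CPM in wild type, 0.30), Hist1h1d (0.26) and Hist3h2ba (0.23) were highest there, and Hist1h3d (-0.04), Hist1h4k (-0.06) and Hist1h4j (-0.07) lowest. The linker genes of microglia summed to 114 CPM in the mutant and 90.7 CPM in the wild-type library, a ratio of 1.26 (1.19 to 1.33).

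In endothelial cells 0 of 31 members reached 1.5-fold, beside 0.0425% and 0.255% of all genes, with Hist1h4h (19.1 CPM in mutant and 10.2 CPM in wild type, 0.53), Hist1h3e (0.33) and Hist1h3f (0.31) highest and Hist3h2ba (-0.08), Hist1h4d (-0.16) and Hist1h4c (-0.33) lowest. In choroid plexus cells 0 of 30 did, beside 0.405% and 0.245%, with Hist2h2aa2 (22.6 CPM in mutant and 14.9 CPM in wild type, 0.39), Hist1h2ac (0.23) and Hist1h4c (0.19) highest and Hist1h2be (-0.21), Hist1h1b (-0.31) and Hist1h4h (-0.31) lowest. In mural cells, the shallowest class, 11 members had enough UMIs, and 1, the H2B gene Hist2h2be, was lower (4 UMIs in mutant and 9 in wild type, -0.91), beside 6.36% higher and 4.76% lower of all genes. Hist2h4 (0.45), Hist4h4 (0.38) and Hist1h4c (0.09) were the highest mural members and Hist1h4h (-0.31) and Hist1h1c (-0.26) were low. With 1 library of 2 mice per genotype, none of these genotype ratios can be told apart from differences between pools, dissociations or sorts.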

How the data were processed

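Values are raw UMI counts (10x 5′ v2) as deposited, made by the authors with Cell Ranger 6.1.1 on mm10, per the labels' protocols. Partek is listed in the submitters' processing notes without a role. A barcode was kept if it had 500 or more genes and 1000 or more UMIs, of which mitochondrial genes gave no more than 10%. Scrublet (scanpy 1.11.5, expected rate 0.06) called 78 mutant (1.46%) and 137 wild-type (1.89%) doublets, which were removed. The files carry no cell types. A cell took the class with the highest mean ln(1 + UMIs per 10000) over its marker list, if that led the next class by at least 0.5. This left 81 mutant (1.54%) and 143 wild-type (2.01%) cells without a class. Cells of the neuron lineage with at least 4 of 12 cycling markers were cycling progenitors and those with at most 2 non-cycling. Cells with 3 were left out, and the number of markers with a UMI depends on depth. A class needed at least 40 cells in each library. The gate was set after the files were seen, and members and lists were chosen with earlier results of these data known.

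UMIs were summed per gene, class and library and divided by the UMIs of the class (CPM). Log2 ratios add 10 CPM, so ratios of low members are understated. A gene needed 10 UMIs, in each library for ratios between classes and over both for ratios between genotypes. Intervals are exact Poisson, exact binomial for ratios, and Clopper-Pearson for shares, at 95%, and cover counting error only; a count of 0 allows up to 3 counts. The depth was 41742828 UMIs in mutant and 49080615 UMIs in wild-type kept cells. Named are all linker members, the 12 highest members in cycling progenitors, the 8 highest in non-cycling classes, the 3 highest and 3 lowest genotype ratios in each class, up to 4 genes of each list, and genes said to be chosen after their values were seen. Hist1h3b, an example outside this rule, was also chosen after its values were seen. The scripts were tested on simulated data. Alternatives were a stricter filter, doublets kept, Leiden clusters (leidenalg 0.10.2), thinning to 2000 UMIs, another denominator, mean of cells, cells rich in microglia markers removed, pseudocount 1 and no minimum of UMIs. Alternatives added after the data were seen left out the richest cell, each member's richest cell, the 4 richest cells of a range or members that share sequence, raised the gate to 8 markers, or compared with the neuron lineage alone.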

Additional observations from a re-analysis of the deposited data

How the results depend on the processing

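Limits are set by 1 library per genotype, 55 mutant and 44 wild-type cycling progenitors, and UMIs that bunch in few cells. No paired analysis was possible because each genotype is 1 library and the groups share no replicate pair. The summed level of cycling progenitors over the non-cycling mean, 14.1 in the mutant and 14.9 in the wild-type library, stayed above 10 under every alternative run. It was 10.2 and 11.0 with Leiden clusters (83 and 62 cycling cells), 13.3 and 12.1 thinned to 2000 UMIs, 14.5 and 15.4 without mitochondrial and ribosomal genes, 12.9 and 12.5 as the mean of cells, 13.1 and 13.7 without the richest cell, 18.2 and 20.8 with at least 8 cycling markers (38 and 26 cells), and 16.5 and 16.4 without the 32 members that share sequence. The count of 44 members 2-fold higher ranged between 32 and 55, and a share over all genes is not given for either end. The linker share in wild-type cycling progenitors was 26.2% thinned and 23.5% without the richest cell, and its non-cycling mean in the wild-type library was 22.2% with Leiden clusters and 22.5% as the mean of cells. Without the members that share sequence, linker shares were 51.7% in the mutant and 47.3% in the wild-type library for cycling progenitors, against 45.2% and 43.4% in the non-cycling mean, where all members left out are core genes.

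The log2 ratio of mutant over wild type in cycling progenitors (0.01) took both signs: -0.090 with Leiden clusters, 0.19 thinned, 0.14 as the mean of cells, -0.11 with at least 8 markers and 0.077 without the members that share sequence. In the neuron lineage (0.04) it was -0.17 with Leiden clusters and -0.070 thinned, in choroid plexus cells (0.04) -0.051 thinned and -0.058 without sharing members, in microglia 0.21 thinned, and in astrocytes 0.32 without sharing members. Counts of members 1.5-fold apart ranged between 13 and 23 in cycling progenitors and were 16 without each member's richest cell. Thinned, they were 2 in the neuron lineage, 2 in choroid plexus cells, 4 in astrocytes, 1 in endothelial cells and 2 in mural cells. With pseudocount 1 they were 8 in the neuron lineage, 6 in choroid plexus cells, 7 in astrocytes, 1 in microglia, 9 in endothelial cells and 2 in mural cells, and with no minimum of UMIs 4 in mural cells. Apart from the count without each member's richest cell, no share over all genes is given beside these counts. They are therefore not read as a result about the members. Hist1h1b in the neuron lineage reversed to -0.45 when thinned. The cause of these shifts was not tested.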
